A study of Mus musculus with 14 samples.

Results

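The genes described here are 9 serine protease inhibitor (serpin) genes of clade A: Serpina1a, Serpina1b, Serpina1c, Serpina1d and Serpina1e, the mouse copies of the alpha-1-antitrypsin gene, Serpina3k, Serpina3m and Serpina3c of the expanded Serpina3 family, and Serpina6. They were chosen by gene symbol, with earlier results of these data known. All 9 had a row among the 19660 genes of the liver count table, and 7 had a row among the 20203 genes of the kidney count table, where Serpina3m and Serpina6 had none. Because copies of a family are close in sequence, each family was also summed per library. The sums were over the 5 Serpina1 copies and over Serpina3k, Serpina3m and Serpina3c. In every fit that includes kidney libraries, the Serpina3 sum is of Serpina3k and Serpina3c only.

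Serpins of clade A are made mainly by hepatocytes and secreted into plasma. An inhibitory serpin presents a reactive centre loop as bait; the protease cleaves the loop, is trapped in a covalent complex, and the complex is cleared. Alpha-1-antitrypsin is the main plasma inhibitor of neutrophil elastase, Serpina3k codes for contrapsin, an inhibitor of trypsin-like proteases, and Serpina6 codes for corticosteroid-binding globulin, a serpin that carries glucocorticoids and inhibits no protease. Angiotensinogen, the product of the transgene in these mice, belongs to the same clade.

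RNA sequencing was done on liver and kidney of adult male mice of 12 weeks carrying a human angiotensinogen (hAGT) transgene of haplotype -6A, a promoter variant. The diet was either normal or high in salt. There were 4 liver libraries on each diet and 3 kidney libraries on each diet, 14 in all. The transgene was carried by every group, so no comparison is with mice lacking it. The background strain, the number of transgene copies, the salt dose and its duration are not given in the sources used here. Nothing in the labels says that libraries of a group came from separate animals, so p-values measure the spread between these libraries, which may be technical.

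The liver libraries held 37267778 to 51487382 counts and the kidney libraries 16046094 to 22004927. Mitochondrial transcripts took 2.06% to 29.6% of the liver counts, with normal diet libraries 1 and 2 at 2.3% and 2.06% and every other liver library at 11.3% or more. High salt liver libraries 5 and 6 were nearly alike, with a chi-square of 1.59 per gene between them against 9.83 or more for every other pair of liver libraries on the same diet. Normal diet liver library 4 stood apart in a list of 12 cytokine-induced plasma protein genes, which summed to 91320 CPM there (counts scaled to library size), to between 10150 and 16290 in the other normal diet libraries and to between 6784 and 8534 on high salt. The 12 hepatocyte markers were present in all 8 liver libraries, and the 8 proximal tubule markers summed to between 23780 and 58070 CPM in kidney. In liver the proximal tubule markers summed to 47.26 and 15.33 CPM in high salt libraries 7 and 8, and to between 0.5468 and 5.953 CPM in the others.

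The 9 genes lie in 1 stretch of chromosome 12, at chr12:103646630-104394257 from the start of Serpina6 to the end of Serpina3m (GRCm38, GENCODE M21). The Serpina1 copies are on the minus strand, Serpina1a at chr12:103853589-103863562, Serpina1b at chr12:103728156-103830373, Serpina1c at chr12:103894926-103904887, Serpina1d at chr12:103763594-103773592 and Serpina1e at chr12:103946931-103958975. Serpina3k at chr12:104338486-104346144 and Serpina3m at chr12:104338486-104394257 are on the plus strand, and Serpina3c at chr12:104146382-104153870 and Serpina6 at chr12:103646630-103657212 on the minus strand. The annotated span of Serpina1b contains all 9999 bases of Serpina1d, and that of Serpina3m contains all 7659 bases of Serpina3k. Each gene's transcript used here has 5 exons.

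The coding sequences show how little separates the copies that reads had to be divided between. The 5 Serpina1 coding sequences are each 1239 bases long, with 86 variable positions, and are 96.29% to 98.47% identical in pairs, Serpina1a and Serpina1c being the closest. The variable positions are densest in 60 bases at coding bases 1101 to 1160, where 18 differ. That stretch codes for the reactive centre loop, the bait that decides which protease is bound. It is shown for each copy with the variable positions in capitals, from GENCODE M21 transcripts.
Serpina1a: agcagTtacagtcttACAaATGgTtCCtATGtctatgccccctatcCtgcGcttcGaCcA
Serpina1b: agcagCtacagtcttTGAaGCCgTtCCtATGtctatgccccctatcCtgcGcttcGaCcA
Serpina1c: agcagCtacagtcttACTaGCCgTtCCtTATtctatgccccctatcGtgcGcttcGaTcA
Serpina1d: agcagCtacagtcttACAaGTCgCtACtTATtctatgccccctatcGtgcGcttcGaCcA
Serpina1e: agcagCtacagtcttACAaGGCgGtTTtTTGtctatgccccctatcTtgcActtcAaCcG

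Serpina3k, Serpina3m and Serpina3c are 85.46% to 91.67% identical in their coding sequences. The 60 bases with the most variable positions, 20 of them, lie near the start of the coding sequence, at bases 70 to 129 of Serpina3k and at the matching bases of the other copies. They are shown because they are among the positions that tell the copies apart, with the variable positions in capitals.
Serpina3k: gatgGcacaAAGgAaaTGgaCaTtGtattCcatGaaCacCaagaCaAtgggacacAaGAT
Serpina3m: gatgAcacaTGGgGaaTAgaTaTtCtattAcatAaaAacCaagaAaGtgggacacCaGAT
Serpina3c: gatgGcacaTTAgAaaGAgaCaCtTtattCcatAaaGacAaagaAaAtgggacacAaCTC

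The share of 50-base stretches of each transcript found in no transcript of another Serpina gene was 27.84% for Serpina1a and 26.68% for Serpina1c, 55.02% for Serpina1b, 51.97% for Serpina1d and 62.12% for Serpina1e. It was 85.96% for Serpina3k, 80.92% for Serpina3m, 95.75% for Serpina3c, and no such stretch of Serpina6 was shared. Genes outside the clade were not searched. Levels of single Serpina1 copies are therefore estimates that depend on how the deposited quantification divided shared reads, above all for Serpina1a and Serpina1c. The family sum does not depend on that division within the family. In kidney none of the 6 values of Serpina1a, Serpina1b, Serpina1c or Serpina1d was a whole number to within 1e-06, as a quantification gives when it divides reads between genes. In liver, where the table prints most values of this size without decimals, 0 of 8 values of Serpina1a, Serpina1b and Serpina1c and 2 of 8 of Serpina1d were not whole.

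The 5 Serpina1 copies also resemble one another upstream of the gene. Over the 240 bases from 250 to 11 before the RefSeq gene start (GRCm38.p6), aligned parts of the copies were 91.7% to 97.87% identical. The letters TTGCNNAA, a C/EBP-type motif, searched on both strands, were in the windows of Serpina1b, Serpina1d and Serpina1e and in 9.29% of 32851 mouse gene windows of the same length, and TTCNNNGAA, a STAT-type motif, was in none of the 6 windows held for these genes (the 5 copies and Serpina3c) and in 6.77% of all. A match is a description of the letters, not evidence of binding.

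In liver these genes are among the most abundant transcripts. By mean CPM over the 8 liver libraries, Serpina3k ranked 5, Serpina1c 17, Serpina1b 31, Serpina1a 32, Serpina1e 46 and Serpina1d 49 of 19660 genes. Serpina3m ranked 245, Serpina6 436 and Serpina3c 2187. The Serpina1 sum took 1.8% to 3.77% of all liver counts and the Serpina3 sum 0.758% to 2.32%. Both together made up 2.72% to 6.09%.

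Per kilobase of transcript, the scale on which genes can be compared with one another, Serpina3k stood at 9110 ± 2215 CPM per kilobase (SD, n = 4) and Serpina1c at 7199 ± 1235 on the normal diet. Serpina1a followed at 4669 ± 1314, Serpina1b at 4459 ± 855.1, Serpina1e at 3660 ± 2952 and Serpina1d at 2411 ± 745.1. The ranges of neighbours in this order overlapped from Serpina3k down to Serpina1d. Serpina3m at 343.8 ± 123.4, Serpina6 at 152.2 ± 36.32 and Serpina3c at 24.49 ± 19.26 each lay apart from the gene above. On high salt Serpina1c led at 4645 ± 528.5 and Serpina3k came next at 4011 ± 778.7, with overlapping ranges.

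The diet comparison in liver asks how high salt changes these transcripts in the organ that secretes their proteins. The mean level was lower on high salt for 8 of the 9 genes, and no gene passed the test. A log2 fold change below 0 was found for 52.0% of all 15130 genes tested. In edgeR's quasi-likelihood test 0 of 9 reached an adjusted p of 0.05, against 1.0% of all genes (152 genes, 0.41% lower and 0.595% higher on high salt). At an unadjusted p under 0.05 there were 6 of 9, all lower on high salt. Such a p was found for 21.2% of all genes in either direction and 11.3% in that direction. Among the 6 are Serpina1a, Serpina1b, Serpina1c and Serpina1d, near-identical copies between which reads were divided. Counts over the 9 genes, and their median, are therefore not over independent measurements. DESeq2 called 2 of the 9, as given below. The median log2 fold change, high salt over normal diet, was -0.62 over the 9 genes and -0.02 over all genes, and 9.46% of all genes had a value below -0.62. In a bulk sample, fewer cells of a type and less RNA per cell cannot be told apart.

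Serpina3k showed the largest difference by fitted log2 fold change among the 9. Its level was 21330, 23180, 17570 and 12870 CPM in normal diet libraries 1 to 4, and 8779, 8340, 9842 and 6042 CPM in high salt libraries 5 to 8. Every high salt library lay below every normal diet library. The means were 18740 ± 4556 and 8251 ± 1602 CPM (SD, n = 4 each), 2.27-fold lower with salt, with a log2 fold change of -1.18 (SE 0.29) and an adjusted p of 0.0839.

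Serpina1c, the leading Serpina1 copy in liver, was at 9755, 11890, 9770 and 7776 CPM on the normal diet and at 6950, 6729, 6282 and 5326 CPM on high salt. The groups did not overlap here either. Its log2 fold change was -0.63 (SE 0.24), with an adjusted p of 0.184. Non-overlap with high salt lower was seen for these 2 of the 9 genes and for 6.03% of all genes tested.

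**Figure D1:**
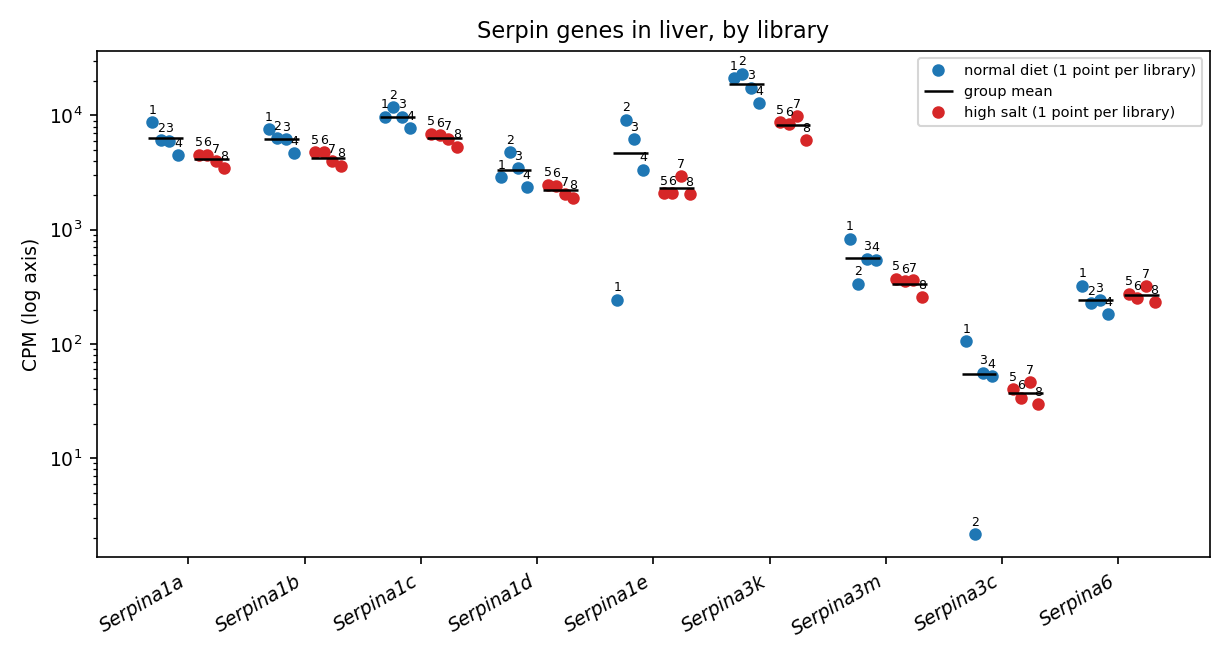
Levels of the 9 serpin genes in the 8 liver libraries, in CPM on a log axis; each point is 1 library with its number, and the line is the group mean. The high salt libraries of Serpina3k and Serpina1c lie below all normal diet libraries, and single normal diet libraries lie far below the rest for Serpina1e (library 1) and Serpina3c (library 2).

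The other Serpina1 copies had overlapping groups. Serpina1a was at 8782, 6117, 6026 and 4476 CPM on the normal diet and at 4526, 4540, 3990 and 3455 on high salt, and only library 4 of the normal diet fell within the high salt range. Serpina1b was at 7619, 6361, 6177 and 4709 CPM and then at 4785, 4746, 3961 and 3640, overlapping in the same way. Serpina1d was at 2881, 4763, 3457 and 2345 CPM and then at 2485, 2433, 2035 and 1909. In all 3, normal diet library 4 was the lowest of its group. Their log2 fold changes were -0.62 for Serpina1a, -0.54 for Serpina1b and -0.60 for Serpina1d, with adjusted p-values of 0.214, 0.233 and 0.224.

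Serpina1e varied most between libraries on the normal diet among the Serpina1 copies. It was at 244.6, 9167, 6192 and 3355 CPM there, a 37.5-fold range, and at 2090, 2083, 2959 and 2053 CPM on high salt, a 1.44-fold range. The low value came from library 1, whose levels of Serpina1a and Serpina1b were the highest of the 8. The log2 fold change was -1.05 with an SE of 0.75, and the adjusted p was 0.437. Leaving out 1 library, the log2 fold change ran from -1.45 to -0.51, the latter without normal diet library 2. With limma on the deposited normalized values it was -0.21.

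Summed over its 5 copies, the Serpina1 family was at 29280, 38300, 31620 and 22660 CPM on the normal diet and at 20840, 20530, 19230 and 16380 CPM on high salt. The groups did not overlap, and the gap between the lowest normal diet library and the highest high salt library was small beside the range within the normal diet. The means were 30470 ± 6456 and 19240 ± 2031 CPM (SD, n = 4 each), with a log2 fold change of -0.66 (SE 0.28) and an adjusted p of 0.21.

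The Serpina3 sum is nearly all Serpina3k, which made up 95.5% to 98.6% of it in the normal diet libraries and 95.5% to 96.0% in the high salt libraries. It was at 22270, 23520, 18180 and 13470 CPM on the normal diet and at 9192, 8728, 10250 and 6329 CPM on high salt, without overlap. The log2 fold change was -1.17 (SE 0.29), with an adjusted p of 0.0851. Within the family, Serpina3m was at 836.7, 337.9, 557.0 and 548.6 CPM and then at 373.1, 354.8, 364.3 and 257.3. Only normal diet library 2 lay within the high salt range of Serpina3m, whose log2 fold change was -0.76 (SE 0.27, adjusted p = 0.167).

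Serpina3c, the least abundant of the 9 in liver, was at 106.5, 2.152, 56.16 and 52.0 CPM on the normal diet and at 40.15, 33.79, 46.42 and 29.83 CPM on high salt. A 49.5-fold range separated the normal diet libraries, set by the low value in library 2. Its log2 fold change was -0.53 with an SE of 0.74, and its sign depended on the processing: limma on the deposited normalized values gave 0.36, and the fit without normal diet library 1 gave 0.03. Without normal diet library 2 it was -0.93.

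Serpina6, the glucocorticoid carrier, was the 1 gene of the 9 with a higher mean on high salt. It was at 323.0, 229.0, 242.3 and 182.9 CPM on the normal diet and at 275.9, 252.8, 322.3 and 232.1 CPM on high salt. The groups overlapped over most of their range, with a log2 fold change of 0.15 (SE 0.20, adjusted p = 0.694). That value was 0.02 and 0.30 with normal diet library 4 or 1 left out, and 0.04 with high salt library 7 left out.

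The values of the Serpina1 and Serpina3 genes moved with facts about the libraries, whose part in the result was not tested. Without normal diet libraries 1 and 2, the pair low in mitochondrial transcripts, the log2 fold change was -0.50 for the Serpina1 sum and -0.87 for the Serpina3 sum, with adjusted p-values of 0.413 and 0.198. Among single genes it was then -0.35 for Serpina1a, -0.35 for Serpina1b, -0.39 for Serpina1d and 0.35 for Serpina6. With high salt libraries 5 and 6 summed to 1 library, the values were -0.70 and -1.19, with adjusted p-values of 0.407 and 0.27. Normal diet library 4, highest in the cytokine-induced list and in neutrophil markers (54.52 CPM summed, against 1.331 to 2.49 in the other liver libraries), had the lowest Serpina1 and Serpina3 sums of its group. Without it the Serpina3 sum was at -1.32 and passed the test (adjusted p = 0.0411), and so did Serpina3k at -1.34 (adjusted p = 0.0408). As a percent of non-mitochondrial counts, the Serpina1 sum was at 2.96, 3.85, 3.5 and 2.52 on the normal diet and at 2.71, 2.68, 2.22 and 2.21 on high salt, which overlap. On that scale the Serpina3 sum was at 2.25, 2.37, 2.01 and 1.5 and then at 1.2, 1.14, 1.19 and 0.854, which do not.

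DESeq2 on the same counts called both family sums, with adjusted p-values of 0.0216 for Serpina1 and 0.00013 for Serpina3. Of the single genes it called Serpina3k (log2 fold change -1.19, adjusted p = 0.000138) and Serpina1c (-0.64, adjusted p = 0.0161). It called 1122 genes in liver in all. The calls therefore differ between the tools at nearly the same sizes of change.

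Most hepatocyte markers had lower means on high salt too, and albumin and Ttr did not. Of the 12 markers 0 were called and 10 had a log2 fold change below 0 (median over the 12, -0.25). These ran from Apoa2 at -0.12, Apoa1 at -0.15, Serpinc1 at -0.16 and Cps1 at -0.18 to Hrg at -0.65 and Fgg at -0.73, with Ahsg at -0.42. Fga, Fgb and Fgg were each highest in normal diet library 4, at 5010, 5450 and 4060 CPM. In the other normal diet libraries they reached at most 2480, 2580 and 2560 CPM. Ttr was at 0.28, with overlapping groups. Albumin (Alb) was at 44000 ± 8320 CPM for the normal diet and 74600 ± 7510 CPM for high salt (SD over 4 libraries each). Its log2 fold change was 0.76 with an adjusted p of 0.19, and its groups did not overlap, as was the case for 6.42% of all genes in that direction. Through albumin the markers summed to between 73020 and 94100 CPM on the normal diet and to between 102600 and 122200 CPM on high salt.

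The makeup of the Serpina1 family in liver differed little between the diets. Serpina1c made up 32.4% ± 1.67 of the family's counts without added salt and 32.8% ± 0.387 with it (SD, n = 4 each). Serpina1a was at 21.2% and 21.4%, Serpina1b at 20.7% and 22.2%, and Serpina1d at 10.9% and 11.5%. Serpina1e was at 0.835%, 23.9%, 19.6% and 14.8% in normal diet libraries 1 to 4, and at 12.0% ± 2.54 on high salt. In library 1 Serpina1a and Serpina1b held 30% and 26.0%, the highest shares of the 8 liver libraries. Whether the copy or the division of reads differed in that library was not tested.

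**Figure D2:**
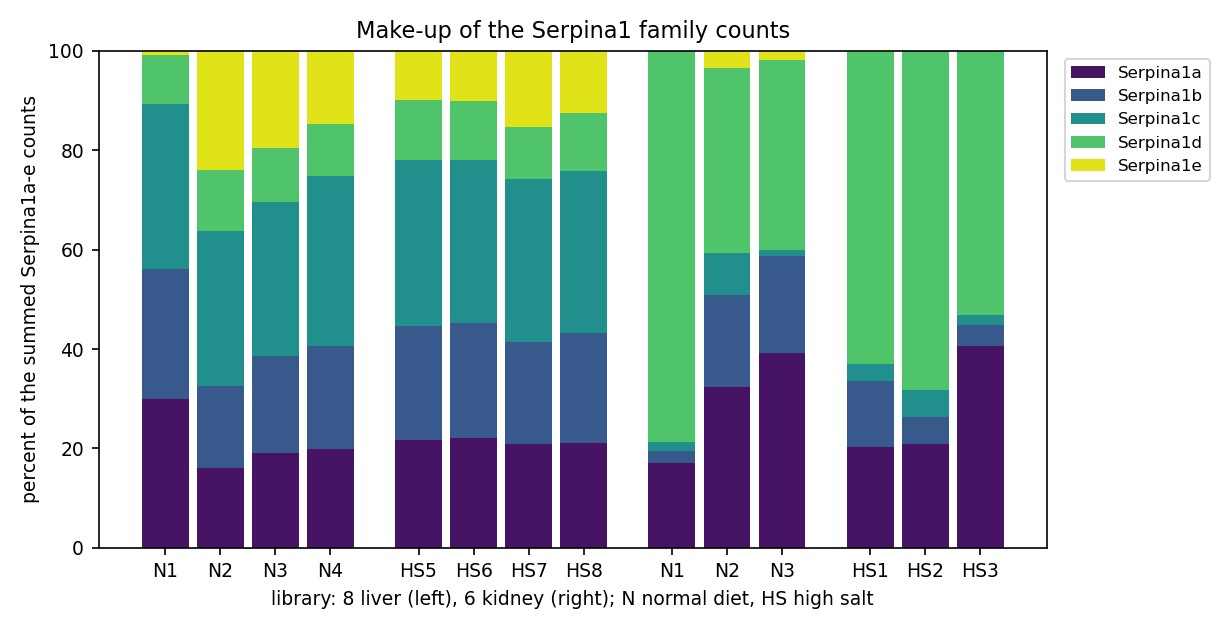
Share of each Serpina1 copy in the summed counts of the 5 copies, in percent, with 1 bar per library, 8 of liver on the left and 6 of kidney on the right (N normal diet, HS high salt). Serpina1c is the largest share in every liver library and Serpina1d in 5 of the 6 kidney libraries, and Serpina1e is nearly missing from liver library N1.

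Across the 8 liver libraries the copies varied together to different degrees, given here as Pearson's r of log2 CPM and as a description, since all values of a library share its depth and RNA. Serpina1a and Serpina1b had r = 0.98, Serpina1c and Serpina1d 0.94, and Serpina1c and Serpina3k 0.97. Serpina1e had r = -0.38 with Serpina1a and 0.16 with Serpina1c, and Serpina3c had -0.21 with Serpina3k. Serpina6 lay between -0.55 with Serpina1e and 0.33 with Serpina3c.

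Among 1997 genes with a mean of at least 50 CPM in liver, the genes most like the Serpina1 sum over the 8 libraries were Immt (r = 0.97), Atp5b (0.96) and Acadsb (0.95). Those most like the Serpina3 sum were Rab5if (0.99), Clta (0.99) and C9 (0.98), the terminal complement component, at 884 ± 136 CPM on the normal diet and 404 ± 55.2 CPM with high salt (SD, n = 4 each). Those most like Serpina6 were Itgb1 (0.94), Stard4 (0.88) and Ces1c (0.86). Leaving out 1 library lowered the last of these to 0.70.

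The other clade A serpin genes showed no called change in liver, and lower means for most. Of 17 listed, 14 had a row and 10 were tested; 0 were called, 5 were lower and 1 higher at an unadjusted p under 0.05, and 8 had a log2 fold change below 0, with a median of -1.21. Over all genes tested, 21.2% had such a p, 11.3% with the lower mean on high salt, and 52.0% had a log2 fold change below 0; the lists that follow are read against the same shares. Serpina10, which codes for the protein Z-dependent protease inhibitor of coagulation, was at 409 ± 164 CPM on the normal diet and 159 ± 37.3 CPM with high salt (SD, n = 4 each), without overlap (log2 fold change -1.36, adjusted p = 0.0616). Serpina3n, the cytokine-induced member of the Serpina3 family, was at 282, 270, 297 and 1120 CPM and then at 238, 229, 205 and 193, with the high value in normal diet library 4 (log2 fold change -1.18, adjusted p = 0.185). Serpina11 was at 146 ± 63.2 and 122 ± 8.92 CPM. Serpina7, which codes for thyroxine-binding globulin and was picked out after its values were seen, differed in the other direction, at 17.2, 27.8, 4.21 and 30.7 CPM on the normal diet and at 60.8, 60.2, 78.8 and 75.1 on high salt without overlap (log2 fold change 1.78, adjusted p = 0.0987).

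**Figure D3:**
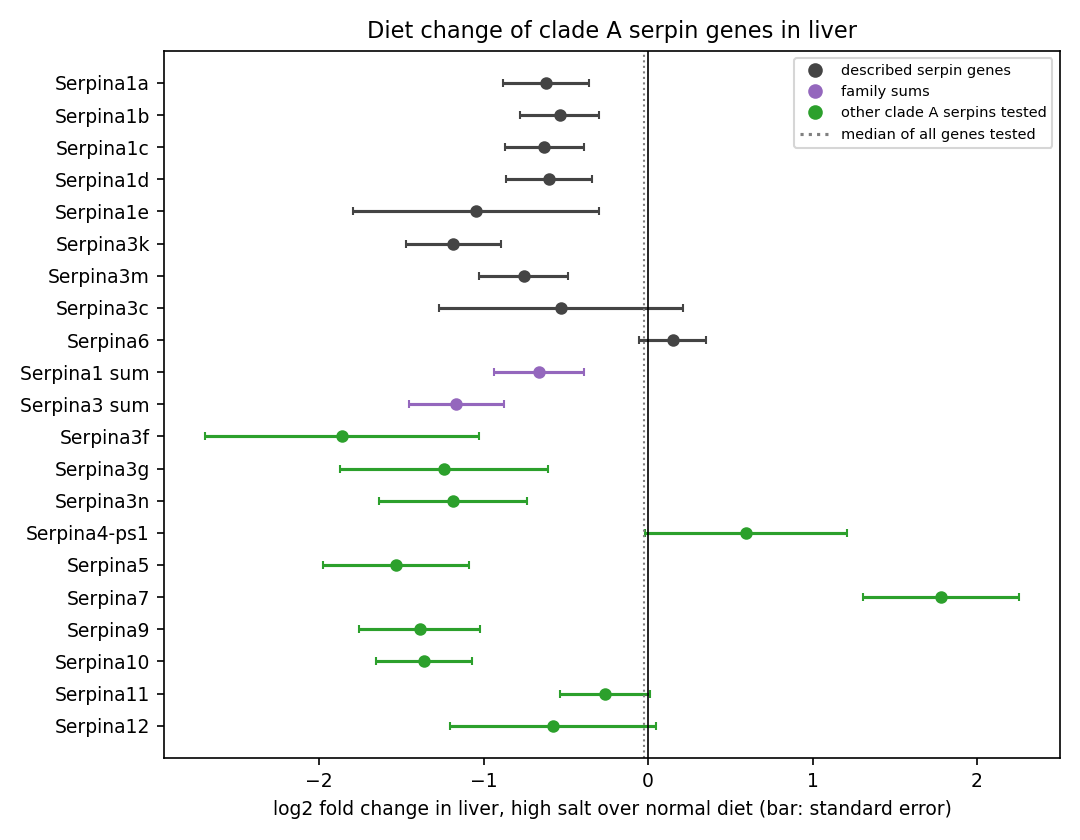
Fitted log2 fold change in liver, high salt over normal diet, for the 9 serpin genes, the family sums and the 10 other clade A serpin genes tested; bars are standard errors and the dotted line is the median of all genes tested. Most points lie below 0, Serpina6 sits near 0 at 0.15, and Serpina7 lies highest at 1.78; 0 of these genes passed the test.

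Further serpins and plasma protease inhibitors also had lower means without calls. Of 13 such genes outside the first list, the angiotensinogen gene among them, 12 were tested, 0 were called, and 11 had a log2 fold change below 0 (median -0.46). Ambp, the precursor of bikunin, was at 2280 ± 437 and 1610 ± 76.6 CPM (log2 fold change -0.50, adjusted p = 0.214). Serpinc1, antithrombin, was at 1910 ± 443 and 1720 ± 93.7 CPM (-0.16, adjusted p = 0.711), and Itih4, an inter-alpha-inhibitor heavy chain, at 1500 ± 958 and 856 ± 82.0 CPM (-0.81, adjusted p = 0.237). Each of these has n = 4 libraries per diet.

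Of 11 genes for proteases, those these serpins can inhibit and related ones, 4 were tested in liver and 0 called. Plasma kallikrein (Klkb1) was at 294 ± 27.9 and 298 ± 21.1 CPM (SD, n = 4 each), with a log2 fold change of 0.02. Cela1, an elastase, was at 41.6 ± 5.54 and 21.6 ± 9.96 CPM without overlap (log2 fold change -0.94, adjusted p = 0.132). Prtn3, a neutrophil protease, was at 1.28 ± 1.55 and 0.195 ± 0.101 CPM. Neutrophil elastase (Elane) did not exceed 0.106 CPM in any liver library.

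Genes for folding, export and disposal of secreted glycoproteins, 12 listed and 12 tested, had 0 called and 9 below 0 (median log2 fold change -0.28). Calr, the chaperone calreticulin, was at 600 ± 64.4 and 392 ± 16.9 CPM (SD, n = 4 each) without overlap (-0.61, adjusted p = 0.0957). Mcfd2, part of the cargo receptor that exports alpha-1-antitrypsin, was at 265 ± 93.4 and 161 ± 5.46 CPM (-0.72, adjusted p = 0.156). Lman1, in the same list, was at 151 ± 31.4 and 159 ± 8.75 CPM with overlapping groups (log2 fold change 0.08). Surf4, another cargo receptor, was at 238 ± 38.7 and 173 ± 18.8 CPM (-0.46, adjusted p = 0.182).

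Regulators of hepatocyte gene expression showed no called change. Of 16 genes, 16 were tested, 0 were called and 5 had a log2 fold change below 0 (median 0.18). The most abundant of them, Hnf4a, was at 444 ± 84.9 and 454 ± 101 CPM (SD, n = 4 each), the growth hormone receptor gene Ghr at 396 ± 123 and 374 ± 21.4, and Cebpa at 197 ± 35.9 and 226 ± 60.5.

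Beside Serpina6, the genes of glucocorticoid handling gave 0 calls in liver over 7 tested, with 5 below 0 and a median log2 fold change of -0.08. Hsd11b1, which regenerates active glucocorticoid, was at 585 CPM (304 to 824) on the normal diet and 558 CPM (487 to 765) on high salt, as mean and range of 4 libraries. Akr1d1, which reduces steroids, was at 130 ± 70.9 and 85.1 ± 1.5 CPM (SD), and the glucocorticoid-induced gene Tsc22d3 at 106 ± 47.7 and 75.8 ± 23.0 CPM. The groups overlapped for all 3.

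The cytokine-induced plasma protein genes had lower means on high salt throughout. Of 12 tested, 0 were called, 11 were lower at an unadjusted p under 0.05 and 12 had a log2 fold change below 0 (median -2.26), against 11.3% and 52.0% of all genes. Hpx was at 10400 ± 7960 and 2620 ± 399 CPM, Hp at 6830 ± 8500 and 1280 ± 169 CPM, and Fgb at 3150 ± 1550 and 2190 ± 247 CPM (SD, n = 4 each). For Hp and Hpx the groups did not overlap, and the normal diet ranges were wide, at 1500 to 19500 CPM for Hp and 4350 to 22100 CPM for Hpx. Normal diet library 4 had the highest sum of this list and the lowest Serpina1 and Serpina3 sums of its group. In normal diet libraries 1 to 3 the list summed to 15750, 16290 and 10150 CPM. The Serpina3 sum, at 22270, 23520 and 18180 CPM there, had the same order, and the Serpina1 sum, at 29280, 38300 and 31620 CPM, had another. What links the list to the serpin families was not tested.

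Kidney held little RNA of these genes. The Serpina1 sum was at 133.2, 43.52 and 48.26 CPM on the normal diet and at 45.81, 75.46 and 125.7 CPM on high salt, or 0.00379% to 0.0157% of all kidney counts. The groups overlapped over nearly their whole range. The means were 74.99 ± 50.46 and 82.32 ± 40.38 CPM (SD, n = 3 each), with a log2 fold change of 0.13 (SE 0.50, adjusted p = 1.0).

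Serpina1d was the leading copy in kidney. It was at 104.7, 16.16 and 18.49 CPM on the normal diet and at 28.76, 51.52 and 66.65 CPM on high salt, with library 1 of the normal diet far above its group. Serpina1a was at 22.8, 14.11 and 18.89 CPM and then at 9.287, 15.81 and 51.12, high in library 3 of high salt. Serpina1b was at 3.202, 8.056 and 9.469 CPM and then at 6.059, 4.144 and 5.096, and Serpina1c at 2.336, 3.667 and 0.5655 CPM and then at 1.6, 3.99 and 2.669. Of these 4 tested genes 1 had a log2 fold change below 0, against 53.7% of all genes, and for 0 of the 4 did the diets not overlap, against 3.04% of all genes with high salt lower and 3.84% with it higher. Of the 4, 0 were called, as were 0.0% of the 15847 genes tested in kidney, and 0 had an unadjusted p under 0.05, against 2.01% of all genes. DESeq2 called 11 genes in kidney, of which none was one of these.

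**Figure D4:**
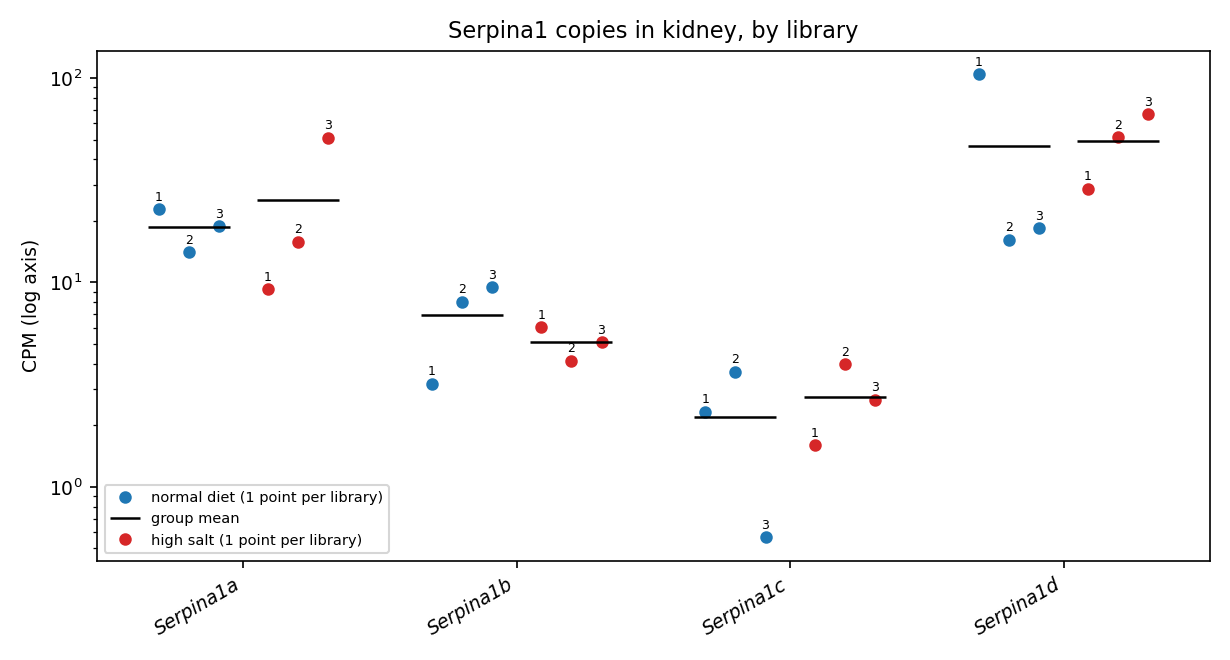
Levels of the 4 Serpina1 copies tested in kidney, in CPM on a log axis, with 1 numbered point per library and the group mean as a line. The diets overlap for every copy, and Serpina1d spans 16.16 to 104.7 CPM on the normal diet.

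The makeup of the family was unlike that of liver. Serpina1d made up 51.3% ± 23.6 of the family's kidney counts without added salt and 61.4% ± 7.75 with it (SD, n = 3 each), and Serpina1a 29.5% ± 11.3 and 27.3% ± 11.6. Serpina1c, the leading copy in liver, was at 3.78% ± 4.03 and 3.63% ± 1.59. The ranges of Serpina1c and of Serpina1d over the kidney libraries lay apart from those over the liver libraries, at 1.17% to 8.43% against 30.9% to 34.3% for Serpina1c and 37.1% to 78.6% against 9.84% to 12.4% for Serpina1d. The kidney shares rest on 743.113 to 2764.76 counts of the family per library, and the part of them that was divided between copies was not measured.

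Serpina1e, Serpina3k and Serpina3c did not pass the filter on low counts in kidney, where their counts were low in most libraries. Serpina1e had 3.50313, 26.0789 and 17.5316 counts on the normal diet and 2.27013, 0.0 and 3.37294 on high salt. Serpina3c had at most 5.03921 counts in any library. Intervals and floors cover counting error only, and a level under 3 counts was not distinguished from 0. The deposited normalized kidney values, which come from another quantification, list Serpina6 at 0.0 to 1.69 and Serpina3m at 0.0 to 4.76.

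Serpina3k had 10, 114.788 and 30.9418 counts in the kidney libraries on the normal diet and 7.0, 2.0 and 2.0 on high salt, without overlap. The Serpina3 sum in kidney passed the filter on low counts through its normal diet libraries, at 0.7494, 7.017 and 1.598 CPM. On high salt it was at 0.4913, 0.2521 and 0.09092 CPM. The filter thus kept this row because of the group where it was high, so its fitted values are given as a description. Its log2 fold change was -3.44 (SE 0.94, adjusted p = 0.9996 in edgeR's quasi-likelihood test), and -2.05 without normal diet library 2. That library, the highest in Serpina3k, was also the highest in 8 of the 12 hepatocyte markers in kidney, among them Alb at 35.7 CPM against 2.7 to 10.9 in the others, Apoa1 at 2.93 and Ahsg at 3.4 CPM. The 12 markers summed to 99.95, 113.5 and 66.66 CPM on the normal diet and 139.6, 122.6 and 71.82 on high salt, with Cps1 at 0 in 2 libraries and Ahsg in 1. In normal diet library 2 the largest members were Alb at 35.7 and Ttr at 30.3 CPM. The part of these transcripts in the Serpina3k counts was not tested.

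Set side by side on the normal diet, the Serpina1 copies were far higher in liver than in kidney. In 1 fit of all 14 libraries over 16633 genes shared by the tables, the 4 copies that passed the kidney filter on low counts were called higher in liver, as were 32.9% of all genes. The log2 difference was 8.97 (SE 0.73) for Serpina1a, 10.36 (SE 0.60) for Serpina1b, 12.67 (SE 0.82) for Serpina1c and 6.73 (SE 0.75) for Serpina1d. It was 9.22 for the Serpina1 sum. Serpina1c and Serpina1d stand far apart, the same contrast that the shares of the copies show. Serpina1e, Serpina3k and Serpina3c entered this fit only through their liver levels, so a difference between the tissues was set by the filter, and their values of 12.98, 13.22 and 8.53 are given as a description. Tissue cannot be told apart from whatever else differed between the tables.

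Whether the diet difference itself differed between the tissues was tested as an interaction in the same fit. Of the 4 Serpina1 copies that passed the kidney filter 0 were called, as were 0.0% of all genes, and 0 had an unadjusted p under 0.05, against 10.1% of all genes; DESeq2 called 148 genes in all. The Serpina1 sum was at -0.80 (SE 0.73, adjusted p = 0.726) and the Serpina3 sum at 2.25 (SE 0.99, adjusted p = 0.477), the latter resting on few kidney counts.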

How the data were processed

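The authors deposited expected counts per gene, per the file headers, from an expectation-maximisation quantification. A second deposited table per tissue holds normalized values, used as a linear signal. The liver values equal the counts multiplied by a constant of each library, and the kidney values come from another quantification. The submitters' processing notes name STAR 2.5.3a, Partek 7.0, DESeq2 and mm10. Every gene of the count tables had at least 10 counts in all. Libraries were made from total RNA with a SMARTer mRNA kit, per the labels' protocols.

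After rounding to whole numbers, expected counts entered the quasi-likelihood test of edgeR 4.0.16 with TMM scaling and the filterByExpr filter (R 4.3.3), within each tissue, and in 1 fit of both tissues for the interaction and the tissue contrast. Family sums replaced their copies in a further fit. Benjamini-Hochberg adjusted p-values under 0.05, over all genes tested, were called. CPM use TMM library sizes. The kidney replicate numbers were not used to pair the samples in the main fits. Alternatives used DESeq2 1.42.0, limma 3.58.1 on log2(normalized value + 1), other scalings and left-out libraries. On simulated counts with 200 genes changed by 2 (log2), 177 of them were recovered in liver among 14891 genes and 152 in kidney among 15475 genes. In the interaction 94 were recovered among 15956 genes and in the tissue contrast 163 among 15959 genes. Unchanged genes called numbered 11 in liver, 6 in kidney, 2 in the interaction and 9 in the tissue contrast.

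Coding sequences were aligned with MAFFT 7.526. Genes named are the 9 members, any called gene of a list, the 3 with the highest mean liver CPM in each list, and the 3 most like each family sum and Serpina6. Serpina7, Elane, Lman1 and the hepatocyte markers named were picked out after their values were seen. The members and lists were chosen with earlier results of these data known. The human transgene was not analysed here. Some results on regulators are not reported here.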

Additional observations from a re-analysis of the deposited data

Results flagged for a closer look

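A single library lay far from the rest of its group in 2 of the 22 groups of 4 liver libraries checked (each gene or family sum on each diet), where chance flags about 1 in 20. Serpina1e in high salt library 7 was at 2960 CPM, against 2053 to 2090 in the other high salt libraries. Serpina3m in high salt library 8 was at 257 CPM, against 354.8 to 373.1. The same check did not pick out the low Serpina1e value of normal diet library 1 or the low Serpina3c value of normal diet library 2, since the other libraries of those groups were also far apart.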

How the results depend on the processing

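Of 798 recomputed values, 761 kept their direction and side of the threshold, or for counts of genes called stayed within 1.5 times. The 761 include copy shares, for which the rule was a mean within the SD of the main mean. Leaving out 1 library cannot break that rule, so those values say nothing about how firm the shares are. The number of genes called in liver, 152, was 665 with library totals and no scaling factor, 1122 with DESeq2, 12 with high salt libraries 5 and 6 summed, 52 without normal diet libraries 1 and 2 (chosen after seeing the data), and 12 to 765 leaving out 1 library. The count was lowest without high salt library 6 (12) or 5 (18) and highest without normal diet library 3 (765) or 4 (409); it was 32 without high salt library 8, 39 without normal diet library 1 and 41 without 2. DESeq2 called 11 genes in kidney and 148 for the interaction, where leaving out 1 library gave 0 to 7.

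In liver the Serpina1 sum was at -0.67 with DESeq2 (adjusted p = 0.0216) and at -0.79 to -0.54 leaving out 1 library, and the Serpina3 sum at -1.18 with DESeq2 (adjusted p = 0.00013) and at -1.32 to -1.04, past the threshold only without normal diet library 4 among the left-out libraries. With library totals and no scaling factor the Serpina1 sum was at -0.40, Serpina1a at -0.37, Serpina1b at -0.28, Serpina1c at -0.37, Serpina1d at -0.34, Serpina3m at -0.50, Serpina3c at -0.28 and Serpina6 at 0.39; Serpina1d was at -0.39 without normal diet library 2. Over all alternatives the adjusted p ranged from 0.0216 to 0.465 and from 0.00013 to 0.278. Signs reversed for Serpina3c in liver (0.36 with limma on normalized values, 0.028 without normal diet library 1, and -0.93 to 0.028 leaving out 1 library). In kidney they reversed for the Serpina1 sum (-0.31 to 0.84 leaving out 1 library; -0.14 and -0.10 with normal diet library 2 or 3 left out, -0.31 with high salt library 3 left out), Serpina1d (-0.33 to 1.5; -0.33, -0.30 and -0.21 for the same libraries), Serpina1c (-0.14 to 0.90; -0.14 with normal diet library 3 left out, -0.030 with high salt library 2 left out) and Serpina1a (-0.57 to 0.85; lowest without high salt library 3). The interaction reversed for Serpina1b (-0.44 to 0.25; 0.031 without liver normal diet library 1, 0.25 without kidney normal diet library 1, 0.046 without kidney high salt library 1) and Serpina3c (-0.13 to 1.35; lowest without kidney high salt library 3). The cause was not tested.

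Kidney samples of the same replicate number deviated together with r = 0.41, 0.37 and -0.09, and those of unlike numbers with r from -0.465 to 0.387. With 3 libraries per group these values cannot tell whether the numbers pair the samples. With the replicate block, 0 kidney genes were called, the Serpina1 sum was at 0.26 and the Serpina3 sum at -3.00. No paired analysis was possible in liver because the high salt columns carry other numbers than the normal diet ones. With 3 or 4 libraries per group, spread between libraries limits the abundant copies, and depth limits Serpina1e, Serpina3k and Serpina3c in kidney.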
